A study of Mus musculus with 12 samples.

Results

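Type I interferon-stimulated genes were followed in cultures of mouse microglia, the brain's own macrophages, after 24 h with neurofilament light chain (NfL), a structural protein of axons that leaves damaged neurons. The set held 41 genes picked by name as classical targets of type I interferon. All 41 were found by their Ensembl identifier in the deposited count table of 52636 genes, and all 41 were among the 14687 genes that passed a filter on low counts. The cells were wild-type C57BL/6 microglia from P1-2 pups, shaken off mixed glial flasks and plated at 50000 cells per well in medium with 10% serum and 2.5 ng of CSF1, a survival factor for microglia, which every group received. The 3 groups were a vehicle control, 5 µg of full-length NfL and 5 µg of coiled-coil NfL (the rod part of the protein), with 4 libraries each. Replicates 1 to 4 carry the batch labels b1 to b4, so each batch held 1 library of each group. Whether a batch was a separate culture or litter, whether pups were pooled, what the vehicle contained and how the NfL proteins were made were not given in the sources used here. All p-values therefore measure the spread between these samples, which may in part be technical.

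The libraries held 20162427 to 31048044 counts. Levels below are in CPM, read counts scaled to a common library total, with TMM factors that correct this total for composition. All 10 microglia and macrophage markers checked passed the filter, and their summed level was 9140 to 10700 CPM with vehicle, 8130 to 8700 CPM with full-length NfL and 8980 to 9880 CPM with coiled-coil NfL. Single markers moved both ways with full-length NfL, with log2 fold changes against vehicle of -1.62 to 1.83. In the test described below 2 of the 10 were higher and 4 lower (14% and 10.9% of all tested genes were). The colony-stimulating factor receptor Csf1r had 2500 to 4450 CPM in the 12 libraries, whereas the homeostatic microglia marker Tmem119 had 7.33 to 27.3 CPM. Replicate 1 and replicate 4 of the vehicle group, and replicate 1 of both NfL groups, stood low for the interferon-stimulated genes, as set out below.

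Type I interferons bind a receptor made of IFNAR1 and IFNAR2, which activates the kinases JAK1 and TYK2. These phosphorylate STAT proteins, STAT2 among them, which join IRF9 in a complex that binds the interferon-stimulated response element (ISRE) and switches on genes that sense, degrade or trap viruses. Microglia are known to turn on such genes in infection, injury, ageing and neurodegeneration, and part of the set (IRF7, STAT2, IRF9, the RNA sensors) feeds back into more interferon production and signalling.

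The promoters of 5 members are printed to show the element through which the interferon complex acts, and what a member without it looks like. Each run holds the 250 bases before the transcription start in the RefSeq annotation of GRCm38.p6, read 5′ to 3′ on the strand of the gene. Capitals mark each match to the ISRE core GAAANNGAAA, or TTTCNNTTTC on the other strand. Isg15 (chr4:156200819-156201068, minus strand) held 3 overlapping matches whose first bases lay 78, 72 and 66 bases before the start. Oas3 (chr5:120777660-120777909, minus strand) held 1 match at 75 bases, Ifit1 (chr19:34640639-34640888, plus strand) 2 at 104 and 85 bases, and Rsad2 (chr12:26456453-26456702, minus strand) 1 at 120 bases. Irf7 (chr7:141266425-141266674, minus strand), the member with the largest fold change, held none in this window.
Isg15: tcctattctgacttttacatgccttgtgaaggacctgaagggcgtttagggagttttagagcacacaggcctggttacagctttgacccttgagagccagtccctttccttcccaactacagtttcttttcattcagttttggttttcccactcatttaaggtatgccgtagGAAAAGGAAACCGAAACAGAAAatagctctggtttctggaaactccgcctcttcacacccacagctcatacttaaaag
Oas3: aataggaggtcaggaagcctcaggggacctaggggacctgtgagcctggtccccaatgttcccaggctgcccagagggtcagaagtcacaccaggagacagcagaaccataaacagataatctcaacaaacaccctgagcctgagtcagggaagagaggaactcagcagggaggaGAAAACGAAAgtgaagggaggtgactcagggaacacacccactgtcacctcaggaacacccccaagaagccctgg
Ifit1: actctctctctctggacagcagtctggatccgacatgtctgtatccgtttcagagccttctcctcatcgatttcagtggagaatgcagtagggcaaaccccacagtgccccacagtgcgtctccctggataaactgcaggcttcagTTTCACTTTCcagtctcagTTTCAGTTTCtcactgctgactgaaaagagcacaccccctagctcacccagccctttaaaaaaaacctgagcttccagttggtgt
Rsad2: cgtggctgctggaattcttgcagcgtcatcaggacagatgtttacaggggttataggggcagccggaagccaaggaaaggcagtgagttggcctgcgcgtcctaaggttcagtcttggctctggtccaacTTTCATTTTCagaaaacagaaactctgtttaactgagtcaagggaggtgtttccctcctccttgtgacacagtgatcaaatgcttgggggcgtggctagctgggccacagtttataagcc
Irf7: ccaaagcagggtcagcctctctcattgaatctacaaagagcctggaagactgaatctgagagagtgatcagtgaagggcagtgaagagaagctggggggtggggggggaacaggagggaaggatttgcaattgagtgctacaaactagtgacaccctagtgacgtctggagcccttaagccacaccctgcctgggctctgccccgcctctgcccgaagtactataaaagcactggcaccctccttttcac

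Promoters were found for 31 of the 41 members. The ISRE core was present in 11 of the 31 (35.5%), against 936 of 27025 genes (3.46%) over all RefSeq promoters of the same length. The 11 members were Bst2, Ifit1, Ifit3, Ifit3b, Isg15, Oas1a, Oas1g, Oas3, Rsad2, Stat2 and Trim30a. The windows of Ifit3 and Ifit3b are close copies, as in part are those of Oas1a and Oas1g, so the 11 are not all independent. For Bst2, Ifit3, Ifit3b, Oas1a and Stat2 the bases just after the RefSeq start were not found in a GENCODE transcript of the gene. The same held for Herc6 and Oasl2, which had no core. The place of these windows is less certain. A second motif, the palindrome TTCNNNGAA bound by STAT dimers, was present in 5 of the 31 (16.1%; Bst2, Eif2ak2, Ifit2, Isg20 and Oas1a) and in 8.13% of all genes. Both motifs were searched on both strands. A match is a run of letters and not a measured binding site.

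With full-length NfL 13 of the 41 genes rose and none fell. The transcription factor Irf7 rose 3.88-fold, the OAS-like gene Oasl1 3.46-fold, the exonuclease gene Isg20 3.12-fold and the ubiquitin-like modifier Isg15 2.34-fold. In edgeR's quasi-likelihood test, with Benjamini-Hochberg adjustment over all 14687 genes and a threshold of 0.05, the 13 higher members compare with 14% of all tested genes that were higher, and 0 of the 41 were lower, where 10.9% of all tested genes were. The count of members with an unadjusted p under 0.05 was 20. Of all 14687 tested genes 5653 had one, in either direction. The members' median log2 fold change was 0.63, against -0.02 over all tested genes, and 40 of 41 had a positive value. With the replicate number as a block in the same test, 34 of 41 were higher (21.4% of all tested genes), the 13 among them.

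The number of calls without the block rested on single libraries. It was 1 without vehicle replicate 4, 2 without vehicle replicate 1, 5 without vehicle replicate 2 and 26 without vehicle replicate 3. In the same order 1419, 1613, 1528 and 2349 of all tested genes were higher, against 2062 with all libraries. The count of members was 21, 2, 3 and 3 without full-length replicates 1, 2, 3 and 4. In these fits 2152, 1392, 1815 and 1533 of all tested genes were higher. Irf7 kept its call in each of the 12 fits that left out 1 library, with an adjusted p of 0.0053 to 0.0451 (edgeR), and the log2 median of the set stayed between 0.49 and 0.87. The other 12 called members each lost the call in 2 or more of these fits.

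**Figure D1:**
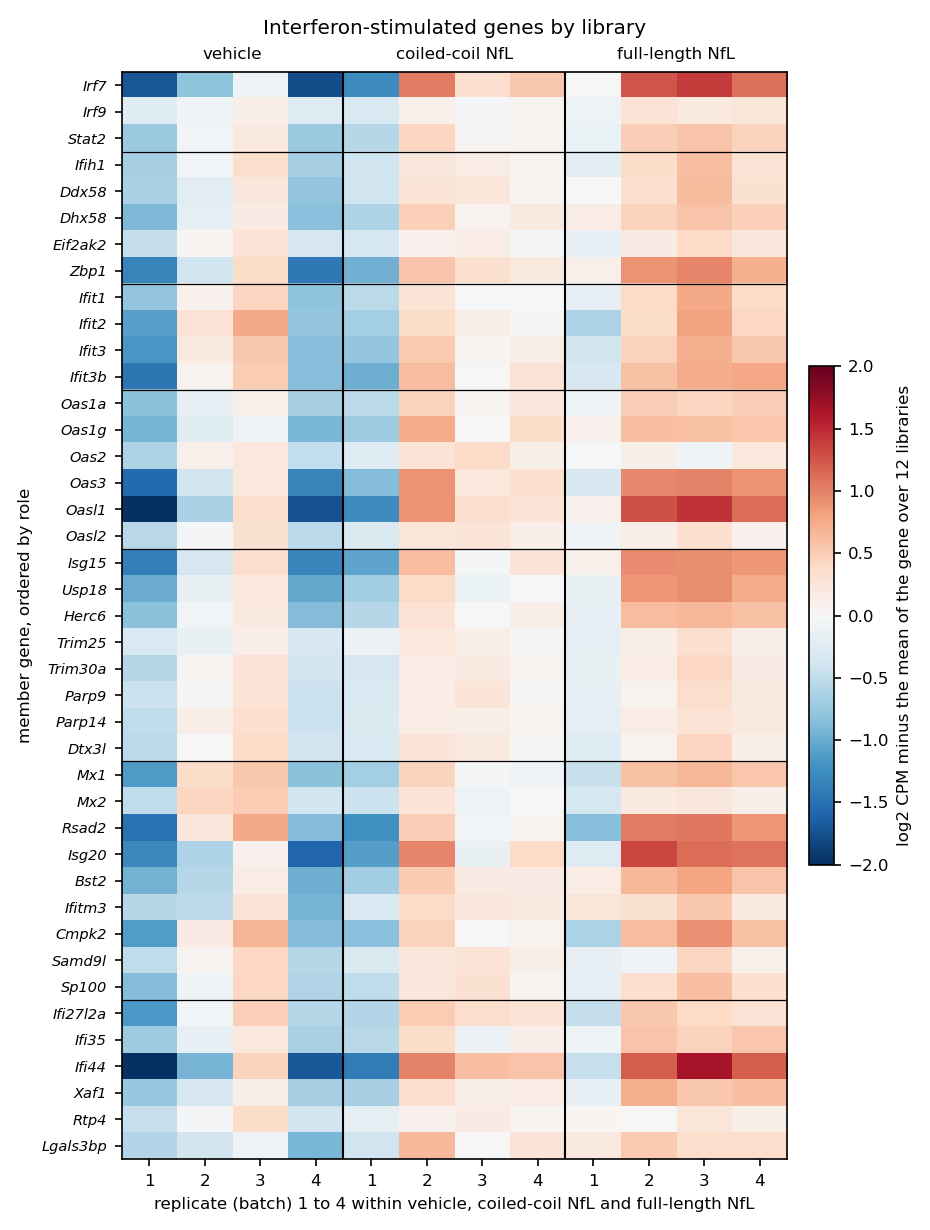
Heat map of the 41 members (rows, grouped by role) in the 12 libraries (columns, replicates 1 to 4 of vehicle, coiled-coil NfL and full-length NfL). Colour gives log2 CPM minus the mean of the gene over the 12 libraries, red above and blue below it. Vehicle replicates 1 and 4 and coiled-coil replicate 1 are the bluest columns, and full-length replicate 3, which held the highest level of 27 members, is the reddest.

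Of the transcription factors of the pathway, Irf7 rose, and Stat2 and Irf9 passed the threshold only with the replicate block. Irf7 (ENSMUSG00000025498, chr7:141262706-141266481, GRCm38, as are all gene spans below) encodes the factor that drives the interferon-alpha genes and is itself interferon-induced. In vehicle replicates 1 to 4 it had 258, 487, 795 and 247 CPM. The full-length libraries had 846, 2030, 2230 and 1830 CPM, and the coiled-coil libraries 351, 1750, 1070 and 1230 CPM. Every full-length library thus lay above every vehicle library, with full-length replicate 1 (846 CPM) just above vehicle replicate 3 (795 CPM), whereas the coiled-coil libraries overlapped both groups. The log2 fold change was 1.96 ± 0.50 (SE; edgeR adjusted p = 0.0149) for full-length NfL and 1.30 ± 0.49 (adjusted p = 0.662) for coiled-coil NfL against vehicle.

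Stat2 (ENSMUSG00000040033, chr10:128270559-128292849) encodes the STAT that is specific to the interferon complex. Its levels were 349, 563, 672 and 349 CPM with vehicle, 535, 819, 863 and 805 CPM with full-length NfL and 395, 789, 594 and 608 CPM with coiled-coil NfL. Only full-length replicate 1 (535 CPM) fell within the vehicle range, and the log2 fold change of 0.65 ± 0.25 missed the threshold (edgeR adjusted p = 0.0820, 0.00261 with the block). Irf9 (chr14:55603571-55610030), the DNA-binding partner of the STATs, went from 103 ± 13.5 CPM (SD, n = 4) to 124 ± 14.4 CPM with full-length NfL and 108 ± 13.2 CPM with coiled-coil NfL. Its log2 fold change with full-length NfL was 0.27 ± 0.12 (edgeR adjusted p = 0.116, 0.0183 with the block). Irf9 also had the smallest ratio between the highest and the lowest vehicle library of all members, 1.31.

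Among the 5 nucleic acid sensors, Dhx58 and Zbp1 rose with full-length NfL, and the other 3 passed only with the block. Dhx58 (ENSMUSG00000017830, chr11:100694884-100704271) encodes LGP2, a helicase that tunes the 2 RNA sensors RIG-I and MDA5. Its vehicle libraries had 115, 190, 242 and 120 CPM, its full-length libraries 239, 296, 319 and 300 CPM, and its coiled-coil libraries 141, 300, 225 and 243 CPM. Full-length replicate 1 (239 CPM) and vehicle replicate 3 (242 CPM) were the only libraries of these groups whose order was crossed. Dhx58 had a log2 fold change of 0.79 ± 0.26 (edgeR adjusted p = 0.0410) with full-length and 0.45 ± 0.25 (adjusted p = 0.739) with coiled-coil NfL.

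Zbp1 (ENSMUSG00000027514, chr2:173206612-173218923), which senses Z-form nucleic acids and can start necroptosis, had 81.7, 155, 265 and 76.0 CPM with vehicle. With full-length NfL it had 221, 383, 404 and 338 CPM, and with coiled-coil NfL 105, 304, 256 and 234 CPM. Vehicle replicate 3 was again the vehicle library that reached into the full-length range. On the log2 scale the fold change was 1.22 ± 0.41 (edgeR adjusted p = 0.0466) with full-length and 0.64 ± 0.40 (adjusted p = 0.763) with coiled-coil NfL. Ddx58 (RIG-I, chr4:40203773-40239828) had a log2 fold change of 0.63 ± 0.22 with full-length NfL (edgeR adjusted p = 0.0534), Ifih1 (MDA5, chr2:62595798-62646255) one of 0.48 ± 0.24 (adjusted p = 0.161). Eif2ak2 (chr17:78852564-78882573), the kinase PKR that halts translation on double-stranded RNA, had 0.27 ± 0.17 (adjusted p = 0.279). With the block their adjusted p were 0.00106, 0.00491 and 0.0152.

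None of the 4 Ifit genes, which lie in 1 cluster on chromosome 19 and encode proteins that bind foreign RNA ends, passed without the block. Ifit2 (ENSMUSG00000045932, chr19:34550694-34576419) had 457, 1190, 1650 and 572 CPM with vehicle, 625, 1260, 1700 and 1300 CPM with full-length NfL and 610, 1260, 1060 and 985 CPM with coiled-coil NfL. Its vehicle libraries spread as widely as those of the treated groups, and vehicle replicate 3 was exceeded by full-length replicate 3 alone. The log2 fold changes were 0.33 ± 0.40 (edgeR adjusted p = 0.561, 0.0991 with the block) and 0.02 ± 0.40 (adjusted p = 0.994), with 95% intervals of -0.57 to 1.24 and -0.89 to 0.92.

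Ifit3 (ENSMUSG00000074896, chr19:34583531-34588731) had 149, 382, 487 and 185 CPM with vehicle. The full-length libraries had 260, 460, 551 and 484 CPM and the coiled-coil libraries 195, 479, 345 and 362 CPM. Its log2 fold change with full-length NfL was 0.54 ± 0.38 (edgeR adjusted p = 0.309, 0.0197 with the block). The nearby copy Ifit3b (chr19:34607970-34613401) had 0.74 ± 0.42 (adjusted p = 0.216, 0.00879 with the block) and Ifit1 (chr19:34640871-34650009) 0.55 ± 0.29 (adjusted p = 0.181, 0.00935 with the block). Of all 50-base stretches of Ifit3 transcripts, 51.2% also occur in another gene, above all Ifit3b, and 45% of those of Ifit3b occur elsewhere, so single 50-base reads cannot fully divide this pair.

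In the Oas family, whose enzymes make 2-5A to activate RNase L, Oas1g, Oas3 and Oasl1 rose with full-length NfL. Oasl1 (ENSMUSG00000041827, chr5:114923240-114937915) lacks that activity and is known in mice to limit translation of Irf7. It had 14.6, 39.3, 76.8 and 18.5 CPM with vehicle, 65.4, 150, 168 and 134 CPM with full-length NfL and 25.8, 115, 77.6 and 75.1 CPM with coiled-coil NfL. Each full-length library stood above the vehicle library of its batch by 1.13 to 2.85 on the log2 scale, although vehicle replicate 3 exceeded full-length replicate 1. Oasl1 had a log2 fold change of 1.79 ± 0.54 (edgeR adjusted p = 0.0313) for full-length and 0.98 ± 0.53 (adjusted p = 0.729) for coiled-coil NfL.

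Oas1g (ENSMUSG00000066861, chr5:120876142-120887613) had 24.6, 39.8, 43.7 and 25.0 CPM with vehicle, 50.1, 71.4, 70.4 and 69.3 CPM with full-length NfL and 28.5, 78.6, 47.1 and 60.5 CPM with coiled-coil NfL. The full-length and vehicle libraries did not overlap. Its log2 fold change was 0.97 ± 0.28 (edgeR adjusted p = 0.0259) with full-length NfL. With coiled-coil NfL it was 0.69 ± 0.28, with an unadjusted p of 0.0294 in edgeR and an adjusted p of 0.673. Oas1a (ENSMUSG00000052776, chr5:120896256-120907521) had 88.7, 140, 168 and 99.2 CPM with vehicle. It had 147, 221, 211 and 220 CPM with full-length NfL and 108, 215, 162 and 182 CPM with coiled-coil NfL, a log2 fold change of 0.69 ± 0.24 (edgeR adjusted p = 0.0517, 0.00135 with the block) for the full-length form. Oas1a and Oas1g share 57.6% and 45.7% of their 50-base stretches with other genes, mainly with each other, so their counts are uncertain as separate values.

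Oas3 (chr5:120753098-120777661) went from 297 ± 168 CPM (SD, n = 4) to 739 ± 253 CPM with full-length NfL, a log2 rise of 1.31 ± 0.44 (edgeR adjusted p = 0.0476), and had 540 ± 242 CPM with coiled-coil NfL. Oasl2 (ENSMUSG00000029561, chr5:114896936-114912234), the neighbour of Oasl1, had 381, 542, 688 and 390 CPM with vehicle, 531, 616, 708 and 592 CPM with full-length NfL and 458, 662, 666 and 610 CPM with coiled-coil NfL. The groups of Oasl2 overlapped throughout, with a log2 fold change of 0.29 ± 0.19 (edgeR adjusted p = 0.274, 0.0252 with the block). Oas2 (chr5:120730333-120749853) had 0.22 ± 0.19 (adjusted p = 0.407, 0.138 with the block) with full-length and 0.30 ± 0.19 with coiled-coil NfL, one of the 3 members whose coiled-coil mean was not between the vehicle and full-length means. The 2 enzymes Oas3 and Oas2 lie next to each other on chromosome 5.

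The ISG15 system attaches and removes a ubiquitin-like tag, and both its modifier and its protease rose with full-length NfL. Isg15 (ENSMUSG00000035692, chr4:156199424-156200818) had 100, 204, 329 and 104 CPM with vehicle, 276, 496, 490 and 469 CPM with full-length NfL and 124, 395, 249 and 308 CPM with coiled-coil NfL. Only full-length replicate 1 (276 CPM) lay below the highest vehicle library. The log2 fold change was 1.23 ± 0.41 (edgeR adjusted p = 0.0460) with full-length and 0.55 ± 0.41 (adjusted p = 0.800) with coiled-coil NfL. The printed Isg15 promoter, with its 3 overlapping ISRE cores, belongs to this gene.

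Usp18 (ENSMUSG00000030107, chr6:121245906-121270917) removes ISG15 from proteins and blocks signalling at IFNAR2. It had 56.0, 101, 129 and 54.9 CPM with vehicle, 101, 205, 212 and 186 CPM with full-length NfL and 68.8, 145, 102 and 111 CPM with coiled-coil NfL. Its log2 fold change was 1.04 ± 0.32 (edgeR adjusted p = 0.0334) with full-length and 0.33 ± 0.32 (adjusted p = 0.845) with coiled-coil NfL. Between the NfL forms it differed by 0.72 ± 0.32, with an unadjusted p of 0.0433 and an adjusted p of 0.216 in edgeR, and no other member had an unadjusted p under 0.05 there. Herc6 (chr6:57581000-57664632), the main ISG15 ligase in mice, had a log2 fold change of 0.77 ± 0.27 with full-length NfL (edgeR adjusted p = 0.0544, 0.00161 with the block).

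Trim30a (ENSMUSG00000030921, chr7:104409025-104465193), a TRIM protein of immune cells, had 369, 565, 674 and 420 CPM with vehicle, 496, 609, 730 and 616 CPM with full-length NfL and 433, 605, 622 and 570 CPM with coiled-coil NfL. The 3 groups of Trim30a overlapped, and its log2 fold change of 0.27 ± 0.19 passed only with the block (edgeR adjusted p = 0.305 without and 0.0202 with it). Trim25 (chr11:88999376-89020293), the ubiquitin ligase that activates RIG-I, had 0.25 ± 0.13 (adjusted p = 0.158, 0.0182 with the block). The ADP-ribosyltransferase genes Parp9 (chr16:35938470-35972605) and Parp14 (chr16:35832874-35871544) had 0.23 ± 0.18 and 0.19 ± 0.19, and Dtx3l (chr16:35926511-35939151), the ubiquitin ligase that pairs with PARP9, had 0.21 ± 0.20. Of these 3, Parp9 alone passed with the block (adjusted p = 0.0423). Parp9 and Dtx3l overlap on the genome, and the strand setting of the counting is unknown here, so reads from the overlap may be placed with either gene.

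Of the other antiviral effectors, Isg20, Bst2 and Ifitm3 rose with full-length NfL. Isg20 (ENSMUSG00000039236, chr7:78913424-78920396), an exonuclease of single-stranded RNA, had 12.0, 19.0, 30.9 and 9.73 CPM with vehicle, 24.4, 73.9, 63.7 and 61.8 CPM with full-length NfL and 13.6, 57.2, 26.5 and 38.6 CPM with coiled-coil NfL. Full-length replicate 1 (24.4 CPM) was far below the other full-length libraries and below vehicle replicate 3. Isg20 had a log2 fold change of 1.64 ± 0.47 (edgeR adjusted p = 0.0259) with full-length and 0.93 ± 0.47 (adjusted p = 0.697) with coiled-coil NfL.

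Bst2 (ENSMUSG00000046718, chr8:71534255-71537456) encodes tetherin, which holds budding virions at the cell surface. It had 295, 383, 629 and 287 CPM with vehicle, 625, 901, 977 and 841 CPM with full-length NfL and 351, 817, 632 and 635 CPM with coiled-coil NfL. Vehicle replicate 3 and full-length replicate 1 were close (629 and 625 CPM), and all other vehicle libraries lay below all full-length ones. Its log2 fold change was 1.07 ± 0.28 (edgeR adjusted p = 0.0180) with full-length and 0.61 ± 0.28 (adjusted p = 0.676) with coiled-coil NfL. The call ended without vehicle replicate 1 (adjusted p = 0.051) or vehicle replicate 4 (0.0522).

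Ifitm3 (ENSMUSG00000025492, chr7:141009586-141010770), which hinders fusion of viruses with endosomes, had 382, 395, 681 and 298 CPM with vehicle. It had 677, 702, 828 and 650 CPM with full-length NfL and 461, 744, 663 and 654 CPM with coiled-coil NfL. Apart from vehicle replicate 3, every vehicle library lay below every library of both treated groups. The log2 fold change was 0.70 ± 0.22 (edgeR adjusted p = 0.0383) with full-length NfL and 0.52 ± 0.22 (unadjusted p = 0.0368, adjusted p = 0.674) with coiled-coil NfL.

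The other 6 effectors had no call without the block. Rsad2 (viperin, chr12:26442746-26456452), which makes a chain-ending nucleotide, had a log2 fold change of 0.80 ± 0.52 with full-length NfL (edgeR adjusted p = 0.279, 0.00927 with the block) and 0.03 ± 0.52 with coiled-coil NfL. Its vehicle libraries ran from 130 to 618 CPM. The adjoining Cmpk2 (chr12:26469204-26479837), a nucleotide kinase, had 0.57 ± 0.42 and Sp100 (chr1:85649988-85709998), a nuclear body protein, 0.49 ± 0.27, with adjusted p of 0.0272 and 0.00264 with the block. Mx1 (chr16:97447035-97462907), a dynamin-like antiviral GTPase that is defective in C57BL/6 and most other laboratory strains, had 0.49 ± 0.38 (adjusted p = 0.354, 0.0258 with the block). Its neighbour Mx2 (chr16:97535308-97560900) was the only member with a negative value, -0.01 ± 0.24 (adjusted p = 0.970), at 34.2 ± 12.2 CPM (SD, n = 4) with vehicle and 33.9 ± 5.77 CPM with full-length NfL. That sign turned with the block (0.02). Samd9l (chr6:3372257-3399572), which restrains poxviruses and translation, had 0.19 ± 0.22 (adjusted p = 0.543, 0.165 with the block).

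The last 6 members have less settled roles. Lgals3bp (ENSMUSG00000033880, chr11:118392751-118402092), a secreted glycoprotein that binds galectins, had 1240, 1440, 1770 and 984 CPM with vehicle, 2120, 2680, 2360 and 2360 CPM with full-length NfL and 1410, 2900, 1840 and 2240 CPM with coiled-coil NfL. Its full-length and vehicle libraries did not overlap, and 2 of the 4 coiled-coil libraries lay within the full-length range or above it. The log2 fold change was 0.81 ± 0.22 (edgeR adjusted p = 0.0179) with full-length NfL, a call that ended without vehicle replicate 4 (adjusted p = 0.0513) or full-length replicate 2 (0.0504). With coiled-coil NfL it was 0.63 ± 0.21, with the smallest unadjusted p of any member in that comparison (0.0127; adjusted p = 0.653). Lgals3bp was also the member with the largest share of variance by treatment, 59.6%.

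Xaf1 (ENSMUSG00000040483, chr11:72301629-72313733), which opposes the apoptosis inhibitor XIAP, had 49.0, 65.8, 90.3 and 52.3 CPM with vehicle, 73.9, 137, 121 and 126 CPM with full-length NfL and 52.2, 106, 89.9 and 92.2 CPM with coiled-coil NfL. Its log2 fold change with full-length NfL was 0.83 ± 0.25 (edgeR adjusted p = 0.0326). Ifi27l2a (ENSMUSG00000079017, chr12:103442167-103443680) encodes a small membrane protein. It had 92.6, 198, 285 and 138 CPM with vehicle, 148, 298, 271 and 252 CPM with full-length NfL and 137, 293, 262 and 247 CPM with coiled-coil NfL. The full-length and coiled-coil libraries of Ifi27l2a were nearly level in each batch, with log2 fold changes against vehicle of 0.44 ± 0.33 (edgeR adjusted p = 0.349, 0.0111 with the block) and 0.39 ± 0.33 (adjusted p = 0.817).

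Ifi44 (chr3:151730922-151749960) had the second largest fold change of the set, 1.80 ± 0.62 on the log2 scale with full-length NfL, and just missed the threshold (edgeR adjusted p = 0.052, 0.000366 with the block). Its vehicle libraries had 5.73 to 35.5 CPM, the widest relative spread of any member, and its full-length libraries 18.9 to 81.5 CPM. Ifi35 (chr11:101448407-101458698), the partner of NMI, had 0.68 ± 0.24 (adjusted p = 0.0546, 0.00287 with the block). Rtp4 (chr16:23520291-23614222), a chaperone of membrane receptors, had 0.20 ± 0.16 (adjusted p = 0.386, 0.103 with the block).

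**Figure D2:**
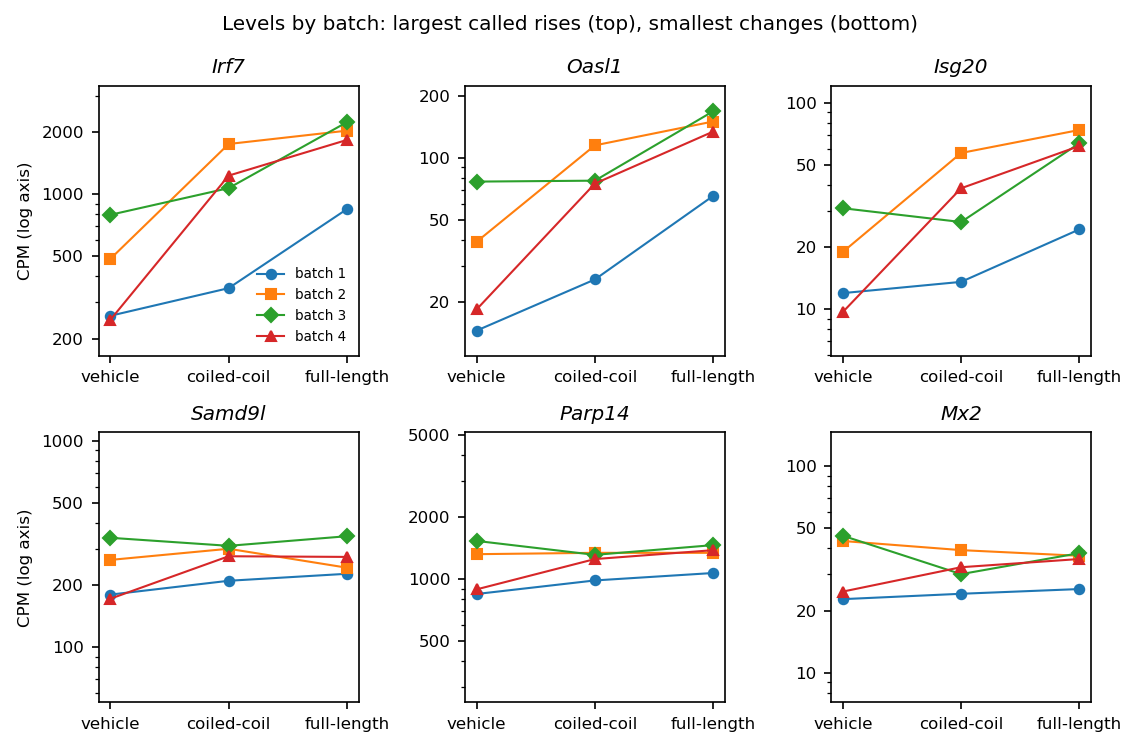
Level in CPM (log axis) with vehicle, coiled-coil NfL and full-length NfL for the 3 called members with the largest log2 fold change (top) and the 3 members with the smallest (bottom); each line joins the 3 libraries of 1 batch. Irf7, Oasl1 and Isg20 are higher with full-length NfL than with vehicle in all 4 batches, while Mx2 is higher in 2 and lower in 2.

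Levels per kilobase of exon allow members to be ranked. Over the 12 libraries Ifitm3 averaged 877 CPM per kb, Lgals3bp 683, Bst2 681, Ifi27l2a 472, Isg15 391 and Irf7 290. The lowest were Mx2 at 9.18 and Ifi44 at 5.77 CPM per kb. With vehicle alone the order differed in part, with Ifit2 at 246, Isg15 at 243, Ifit3 at 172 and Irf7 at 118 CPM per kb. Ifitm3 still led with 647 and Ifi44 was lowest with 2.58 CPM per kb, so the set was expressed without added NfL. The lowest count of any member in any library was 132, for Ifi44, so counting error is small beside the spread between libraries. All members together took 0.806% to 1.62% of a library's counts with vehicle, 1.29% to 2.06% with full-length NfL and 0.964% to 1.89% with coiled-coil NfL.

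With coiled-coil NfL no member passed the adjusted threshold against vehicle in edgeR, with the block (0.00681% of all tested genes) or without it (0% of all tested genes), nor in DESeq2. An unadjusted p under 0.05 was found for 4 members, Irf7, Oas1g, Ifitm3 and Lgals3bp. Of all 14687 tested genes 1082 had one, in either direction. The members' median log2 fold change was 0.30, against 0.00 over all tested genes, and 40 of 41 values were positive. The median was 0.15 without coiled-coil replicate 2, 0.16 without vehicle replicate 1, 0.17 without vehicle replicate 4 and 0.53 without vehicle replicate 3. Only Mx2 was negative, at -0.12 ± 0.24. The largest were Irf7 (1.30), Ifi44 (1.15 ± 0.61), Oasl1 (0.98), Isg20 (0.93) and Oas3 (0.86 ± 0.44). The 95% interval of 18 members reached a log2 fold change of 1 or more, so a rise of that size is not excluded for them. No member had all 4 coiled-coil libraries above all 4 vehicle libraries (1.42% of all tested genes did), and 9 were higher in 4 of 4 batches (11% of all tested genes were).

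Between the 2 forms, given at the same mass and time, no member passed without the block in edgeR (1.38% of all tested genes were higher with the full-length form and 1.34% lower) or in DESeq2, and 1 had an unadjusted p under 0.05. Of all 14687 tested genes 3175 had one, in either direction. The median log2 difference was 0.32 in favour of the full-length form, against -0.02 over all tested genes, with 39 of 41 positive. With the block 5 members passed (8.99% of all tested genes did): Usp18 (0.70, adjusted p = 0.0161), Oasl1 (0.89, 0.0338), Xaf1 (0.44, 0.0374), Rsad2 (0.70, 0.0426) and Herc6 (0.46, just under 0.05). Irf7 differed by 0.65 ± 0.48 (95% interval -0.44 to 1.75; edgeR adjusted p = 0.469) and Isg15 by 0.68 ± 0.41 (-0.23 to 1.60; adjusted p = 0.360). Oasl2, at 0.03 ± 0.19 (-0.39 to 0.45), and Trim25, at 0.04 ± 0.13 (-0.24 to 0.33), were among the members with small differences. No member had every full-length library above every coiled-coil library (7.46% of all tested genes did), and 27 were higher in 4 of 4 batches (21.1% of all tested genes were). The group means rose in the order vehicle, coiled-coil, full-length for 38 of 41 members, the exceptions being Oas2, Mx2 and Samd9l. Both comparisons against vehicle share the same 4 vehicle libraries, so this order is not independent evidence for either.

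Batch held a median 47.5% of a member's variance and treatment 32.1%, against 34.2% and 30.1% over all tested genes. These shares were not scaled for the numbers of batches (4) and groups (3). A split into more parts takes up more variance even without an effect, which favours batch. The shares and the member counts that follow therefore do not rank batch and treatment by strength. For 24 members the share of batch was the larger, among them Ifit2 (74% by batch, 8.95% by treatment), Dtx3l and Rsad2. For the other 17, among them Lgals3bp, Bst2, Irf7 and Ifitm3, the share of treatment was the larger. Vehicle replicate 3 was the highest vehicle library for 41 of 41 members. Vehicle replicate 1 had the lowest level of all 12 libraries for 26 members and vehicle replicate 4 for 14. Coiled-coil replicate 1 was the lowest of its group for 41 members and full-length replicate 1 for 38.

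Without any NfL the vehicle libraries thus already differed in these genes. The ratio of the highest to the lowest vehicle library was 1.31 to 6.2 with a median of 2.1, and 24 members (58.5%) exceeded 2. Among the 5178 tested genes at or above the lowest member's mean level, the median ratio was 1.21 and 4.75% exceeded 2. The widest ratios were those of Ifi44, Oasl1 (5.26) and Rsad2 (4.75).

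Within batches the difference between full-length NfL and vehicle kept its direction for most members. Its median over the 41 members was 0.65 in batch 1, 0.54 in batch 2, 0.25 in batch 3 and 1.20 in batch 4 (log2 CPM), with 41, 39, 36 and 41 members higher. In all 4 batches 35 members were higher, where 26.5% of all tested genes were. The 6 others were Oas2, Parp14, Mx2, Samd9l, Ifi27l2a and Rtp4. Full-length and vehicle libraries were fully separate for 3 members, Irf7, Oas1g and Lgals3bp (14.5% of all tested genes were separate in this direction). The coiled-coil form gave medians of 0.27, 0.35, -0.13 and 0.84 in batches 1 to 4, with 40, 40, 9 and 41 members higher. Batch 3, whose vehicle library was the highest, was the one batch in which most members were lower with the coiled-coil form than with vehicle, by 0.80 for Rsad2 and 0.64 for Ifit2 on the log2 scale. Between the forms the batch medians were 0.41, 0.06, 0.51 and 0.30, with 40, 27, 40 and 38 members higher with the full-length form.

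**Figure D3:**
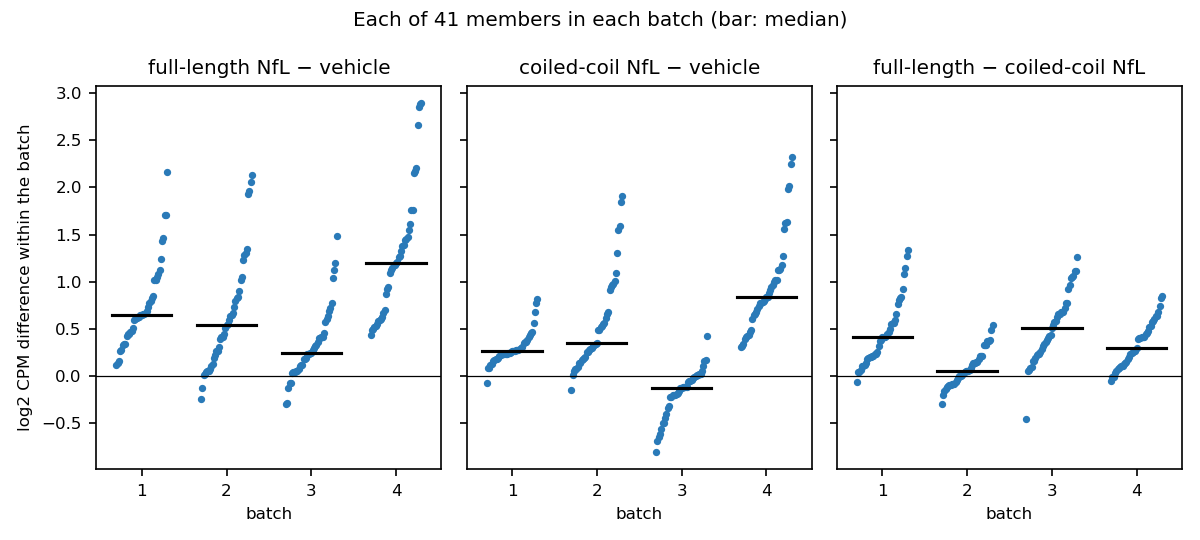
Difference in log2 CPM between 2 libraries of the same batch for each of the 41 members (points, sorted) in batches 1 to 4, with the median as a bar. The medians of full-length NfL minus vehicle are 0.65, 0.54, 0.25 and 1.20, and those of coiled-coil NfL minus vehicle 0.27, 0.35, -0.13 and 0.84.

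Members with and without an ISRE core in the promoter window had overlapping fold changes. The 11 members with a core had a median log2 fold change of 0.74 (0.27 to 1.31) with full-length NfL and 4 calls (14% of all tested genes were called higher). The 20 without one had a median of 0.60 (0.19 to 1.96) and 6 calls, and the 10 without a listed promoter 0.34 (-0.01 to 1.22) and 3 calls. Thus the printed Irf7 promoter, with no core in the window, belongs to the member with the largest fold change, and the Ifit1 promoter, with 2 cores, to a member without a call. These values are a description and carry no test.

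The interferon genes themselves were at or near 0 counts. None of 21 interferon genes passed the filter. Ifnb1, the interferon-beta gene, had 1 to 11 counts per library and 67 in all 12, Ifnk 2 and Ifna4 1 in all. The other 18, Ifng among them, had 0 counts in every library. The interferon-alpha genes are near-identical copies, and how reads that match several copies were counted is unknown here. Of the 5 tested receptor genes 2 fell with full-length NfL (10.9% of all tested genes did). Ifnar2, the signalling chain of the type I receptor, went from 131 ± 9.75 to 109 ± 9.66 CPM (SD, n = 4), a log2 fold change of -0.26 ± 0.08 (edgeR adjusted p = 0.0339). Ifngr1, of the interferon-gamma receptor, went from 267 ± 21.3 to 188 ± 26.9 CPM (-0.50 ± 0.11, adjusted p = 0.00725). It was also lower than with the coiled-coil form (-0.48, edgeR adjusted p = 0.0417). Ifnar1 had -0.11 ± 0.09 (adjusted p = 0.360).

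Among genes for the receptor kinases, Jak2 rose with full-length NfL (0.48 ± 0.09, edgeR adjusted p = 0.00337), whereas Jak1 and Tyk2, the kinases of the type I receptor, had -0.01 (adjusted p = 0.967) and 0.19 (adjusted p = 0.207, 0.0476 with the block). None of the 5 other IRF genes tested was called without the block, and Irf5, Irf8 and Irf1 had log2 fold changes of 0.23, -0.23 and -0.05. With the block Irf5 was higher and Irf8 lower (edgeR adjusted p = 0.0308 and 0.0235). In that fit 21.4% of all tested genes were higher, and 3284 of the 14687 were lower. Of 14 genes that sense nucleic acids or signal towards interferon 4 rose, and 8 with the block (14% and 21.4% of all tested genes did). Ikbke, a kinase that activates IRF3 and IRF7, went from 125 ± 51.2 to 299 ± 28.5 CPM (1.25 ± 0.26, edgeR adjusted p = 0.00613). The adaptor genes of Toll-like receptors Ticam1 (0.67), Ticam2 (0.69) and Myd88 (0.67) rose as well, with edgeR adjusted p of 0.00782, 0.00447 and 0.00823. Traf6, a ubiquitin ligase downstream of them, fell by 0.35 on the log2 scale (adjusted p = 0.00622), and Tlr7, an RNA sensor of endosomes, had -0.03.

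Of 9 negative regulators of the pathway 6 rose with full-length NfL (14% of all tested genes did). Beside the members Isg15 and Usp18 these were Socs3, an inhibitor of JAK kinases (1.01 ± 0.31, edgeR adjusted p = 0.0334), and the phosphatase genes Ptpn6 (0.55), Ptpn2 (0.34) and Ptpn11 (0.23), with adjusted p of 0.00923, 0.0233 and 0.00802. Socs1 had 0.15 (adjusted p = 0.772). With coiled-coil NfL none of the genes of these lists was called.

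A separate list of 47 tested genes induced by type I interferon held no member of the set. It gave 5 higher and 1 lower call with full-length NfL, and 28 and 2 with the block. Its median log2 fold change was 0.45. The 5 higher calls are no larger a share than the 14% of all tested genes that were higher, and the 28 stand beside 21.4% of all tested genes. Uba7, the enzyme that activates ISG15, rose by 0.84 ± 0.20 (edgeR adjusted p = 0.0106). The immunoproteasome gene Psmb8 rose by 1.10 ± 0.26, Slfn1 by 2.25 ± 0.69, Ms4a4c by 2.66 ± 0.84 and Nmi by 0.69 ± 0.22. Ifitm1, a relative of Ifitm3, fell by 1.30 on the log2 scale (adjusted p = 0.0363) at a low level, 4.82 ± 2.63 against 1.94 ± 0.647 CPM (SD, n = 4). Of 15 tested genes known chiefly as targets of interferon-gamma 3 rose, and 11 with the block, with a median of 0.69 (14% and 21.4% of all tested genes were higher). They were the chemokine gene Cxcl9 (4.83 ± 0.83, edgeR adjusted p = 0.00238), Cd274, which encodes PD-L1 (1.54 ± 0.30, adjusted p = 0.00414) and the GTPase gene Gbp2 (1.36 ± 0.43, adjusted p = 0.0399). Of the 15 genes 13 had a positive value, and the lowest log2 fold change was -2.47. None was called lower without the block (10.9% of all tested genes were) and 1 with it (3284 of the 14687 were). Some genes, such as Irf1 and Socs1, stand in more than 1 of these lists, as do Isg15 and Usp18.

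Markers of other cells of the flask also differed between groups. The calls below are for full-length NfL against vehicle, where 14% of all tested genes were higher and 10.9% lower. With the block 21.4% of all tested genes were higher, and 3284 of the 14687 were lower. The summed level of 10 astrocyte markers was 26.7 to 63.5 CPM with vehicle, 24.1 to 39.3 CPM with full-length NfL and 24.4 to 55.2 CPM with coiled-coil NfL, with 1 lower call (8 with the block). That of 10 neuronal markers, of which 7 were tested, was 17.8 to 59.4, 8.87 to 28.5 and 14.6 to 44.1 CPM, with 2 lower calls (7 with the block). Vehicle replicate 3, the vehicle library highest for all members, had the lowest vehicle sum of both lists. The 10 oligodendrocyte markers summed to 243 to 278, 250 to 264 and 241 to 297 CPM, with 1 higher call and, with the block, 2 higher and 5 lower of 9 tested. The 8 fibroblast and mural markers summed to 4.58 to 9.38, 1.52 to 6.01 and 1.80 to 8.13 CPM, with 2 lower calls with the block only. Markers of border-associated macrophages, led by Mrc1, summed to 700 to 1330, 325 to 635 and 486 to 1110 CPM, with 1 higher and 2 lower calls. The defining T cell genes Cd3e, Cd3d and Cd3g had 0 counts in all libraries, as had 6 of the 8 T and NK cell markers. Of 6 markers of plasmacytoid dendritic cells, the classical interferon producers, Ly6d had 0 counts and Klk1 was under the filter, while Tcf4, which other cells also express, had 145 to 225 CPM and Cox6a2 0.562 to 4.29 CPM. Siglech had at most 3 counts per library, a value that is uncertain because microglia usually express it too. The list summed to 200 to 226, 149 to 160 and 174 to 222 CPM, with 1 higher and 1 lower call. In bulk samples fewer cells of a type and less RNA per cell cannot be told apart, and the part of these shifts in the levels of the interferon-stimulated genes was not tested.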

How the data were processed

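The table deposited by the authors lists raw read counts for Ensembl gene identifiers in 12 libraries and was not normalized. Per the submitters' processing notes, GSNAP and GRCm38 were used. Versions, counting tool, annotation and the strand setting of the counting were not given in the sources used here. Per the labels' protocols, a stranded polyA kit and single reads of 50 bases were used. Totals of 20162427 to 31048044 counts limit precision less than the spread between libraries does, and no pair of libraries of a group agreed within sampling noise.

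Symbols and gene spans came from GENCODE M21, promoters from RefSeq (GRCm38.p6). Genes were kept with filterByExpr, scaled by TMM and fitted with edgeR 4.0.16 (R 4.3.3) in 1 quasi-likelihood model of 3 groups (9 residual degrees of freedom). The tests were two-sided, with Benjamini-Hochberg adjustment over 14687 genes. SEs came from the F statistic, and 95% intervals used the t quantile for 9 degrees of freedom. The fit was checked on simulated counts with the same spread for every gene and no batch effect. That check does not cover the differences between batches seen here. The alternatives were the replicate number as a block (6 degrees of freedom), RLE and upper-quartile scaling, no filter, DESeq2 1.42.0, the 2 groups compared only, each library left out in turn and, added after the data were seen, batch 1 left out. The labels equate the replicate number with the batch, so the numbers pair the samples. Deviations from the group means correlated at 0.31 to 0.73 for equal numbers in different groups (12 of 12 pairs over 0.1) and at -0.46 to 0.44 for unequal ones (8 of 36 over 0.1).

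The members and all gene lists were chosen with earlier results of these data known. Library values are given for the 2 members of each role with the highest CPM per kilobase and for called members, up to 12 by adjusted p. The other members are given by fold change or range.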

Additional observations from a re-analysis of the deposited data

Results flagged for a closer look

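Within groups of 4 libraries, 7 of 123 combinations of member and group had 1 library further from the others than Dixon's 95% critical value allows. Chance gives about 1 in 20 for independent combinations, and the count of 7 is near that share. The members were measured in the same 12 libraries, so the combinations are not independent and the count carries no test. All 7 were full-length replicate 1, which lay low. Oas1a had 147 CPM there against 211 to 221 CPM in the other full-length libraries, and Oas1g 50.1 against 69.3 to 71.4 CPM. Oas3 had 361 against 835 to 890 CPM, Isg15 276 against 469 to 496 CPM and Herc6 104 against 174 to 184 CPM. Mx1 had 101 against 203 to 218 CPM, and Rsad2 203 against 677 to 764 CPM. Vehicle replicate 1 and coiled-coil replicate 1, of the same batch, were also low for these genes. Without batch 1 the number of members higher with full-length NfL was 16, and 1950 of all tested genes were higher. The part of the batch in these low values was not tested. No member moved one way in all 4 batches with one NfL form and the opposite way in all 4 with the other.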

How the results depend on the processing

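With the replicate block, 34 members were higher with full-length NfL against vehicle and 5 against coiled-coil NfL (21.4% and 8.99% of all tested genes were). Pairing by batch thus moved both counts and left that of coiled-coil NfL against vehicle at 0. Leaving out 1 library gave 1 to 26 members higher with full-length NfL, where 1392 to 2349 of all tested genes were. Against coiled-coil NfL it gave a median of 0.16 to 0.52, the highest without coiled-coil replicate 2. The number higher with full-length NfL was 13 with RLE and with upper-quartile scaling, 18 without the filter, 11 with the 2 groups only and 19 with DESeq2. Of all genes 2029, 1691, 1758, 1814 and 2317 were higher in these fits, in the order given. Upper-quartile scaling lowered the share of higher genes among all calls to 45.8% from 56.4%, and kept the 13. With the replicate block, under TMM scaling, that share was 48.9%.

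Signs turned only for members near 0, none of them called, and never on rescaling. Leaving out 1 library gave the following lowest and highest log2 values. For full-length NfL against vehicle the range was Mx2 -0.17 to 0.16 (0.02 with the block). For coiled-coil NfL against vehicle the ranges were Eif2ak2 -0.04 to 0.23, Ifit1 -0.03 to 0.4, Ifit2 -0.22 to 0.41, Ifit3 -0.02 to 0.53, Parp14 -0.03 to 0.26, Mx1 -0.17 to 0.35, Mx2 -0.27 to 0.06, Rsad2 -0.25 to 0.47 and Cmpk2 -0.13 to 0.49. Without batch 1 Ifit2 gave -0.05 and Mx1 -0.01. Between the forms the ranges were Oas2 -0.19 to 0.01, Oasl2 -0.07 to 0.1, Trim25 -0.03 to 0.13, Parp9 -0.02 to 0.16, Dtx3l -0.07 to 0.17, Samd9l -0.14 to 0.08 and Ifi27l2a -0.13 to 0.23. Samd9l gave 0.01 without the filter and Oasl2 -0.02 without batch 1. The cause was not tested.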
